A study of Homo sapiens with 19 samples.

Results

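Of the 20037 protein-coding genes placed on the GRCh38 (hg38) chromosomes, 7 genes with many OCT-2 peaks around them are described here: PHLDA1, NAP1L1, SAMD4A, TRERF1, PIM1, FGD2 and ADAMTS12. They were chosen by the number and closeness of the OCT-2 peaks near them, so these counts and spacings are a description and were not tested. Each gene was taken by its RefSeq position with 200 kb to both sides, and PHLDA1 with NAP1L1 and PIM1 with FGD2 are neighbours, so that the 7 windows form 5 separate loci. These loci held 71 of the 5736 OCT-2 peaks placed on chromosomes.

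The study used ChIP-seq in human triple-negative breast cancer cells, with 19 samples in all, of which the 6 samples behind 3 merged lists are used here. The populations compared, both derived from parental MDA-MB-231 cells (231Pa), were polyclonal cultures with stable transgenes, and both carried luciferase. 231Pa_Luc+OCT-2 cells additionally expressed POU2F2, the gene of OCT-2, and 231Pa_Luc+GFP cells additionally expressed GFP. OCT-2 was precipitated from 2 replicates of the 231Pa_Luc+OCT-2 cells and H3K27ac from 2 replicates of each population. All OCT-2 peaks here were called in the 231Pa_Luc+OCT-2 cells, with no matching OCT-2 list for the control cells to set beside them, and transgenic OCT-2 cannot be told apart from that of the cell's own gene. Each list merges its replicates and holds positions only, so the depth is unknown, there is no replicate spread, and presence or absence in a list is the authors' call. The labelled cell type was checked on the superenhancer lists: 5 of 5 mesenchymal or basal marker genes (VIM, CD44, AXL, ITGB1 and EGFR) lay at a superenhancer in both lists, against 0 of 5 luminal and 0 of 4 leukocyte markers.

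OCT-2 is a POU-domain transcription factor, best known from B lymphocytes, that binds the octamer element of promoters and enhancers. Acetylation of histone H3 at lysine 27 marks active enhancers, and a superenhancer is a broad stretch in which such regions lie close together, often at genes that define the state of a cell. Several binding sites of a factor close to each other are common within such stretches, but sites may also cluster elsewhere. The genes have unlike roles. TRERF1 is a zinc finger regulator of transcription and NAP1L1 a chaperone that carries histones H2A and H2B. PIM1 is a serine/threonine kinase and proto-oncogene downstream of cytokine receptors, FGD2 an exchange factor of the small GTPase CDC42, and PHLDA1 a pleckstrin homology-like protein induced by growth factor signalling. SAMD4A is an RNA-binding repressor of translation of the Smaug family, and ADAMTS12 is a secreted metalloprotease of the extracellular matrix.

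Promoter sequences are shown for 4 of the 6 promoters in these windows that an OCT-2 peak overlapped. RefSeq promoters (GRCh38.p14, 250 bases before to 50 after a start site) were matched for 6 of the 7 genes (all but FGD2), with 10 start sites in all, and 1 of the 10, at TRERF1, was overlapped by a peak. Of the 50 promoters of any gene in the 5 loci, 6 were overlapped, beside 1.41% of all 35097 promoters; the loci were chosen for their peaks, so nothing is read from this share. The 4 sequences read 5′ to 3′ along the gene, and capitals mark matches to the octamer ATGCAAAT or to the AP-1 element TGANTCA on either strand. The TRERF1 promoter (chr6:42451877-42452176, minus strand) is the only one of these genes' own promoters under a peak. LOC105375061 (chr6:42224489-42224788, plus strand) and MRPS10 (chr6:42217812-42218111, minus strand) lie beside the end of TRERF1 and share a superenhancer of the OCT-2 cells. PPIL1 (chr6:36874754-36875053, minus strand) lies in the FGD2 window, outside superenhancers.
TRERF1: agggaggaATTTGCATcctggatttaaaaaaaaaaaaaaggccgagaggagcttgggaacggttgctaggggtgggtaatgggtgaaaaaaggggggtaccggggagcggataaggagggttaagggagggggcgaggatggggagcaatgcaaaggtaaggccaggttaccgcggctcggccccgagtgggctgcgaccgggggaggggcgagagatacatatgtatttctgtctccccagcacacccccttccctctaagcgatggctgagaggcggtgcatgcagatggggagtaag
LOC105375061: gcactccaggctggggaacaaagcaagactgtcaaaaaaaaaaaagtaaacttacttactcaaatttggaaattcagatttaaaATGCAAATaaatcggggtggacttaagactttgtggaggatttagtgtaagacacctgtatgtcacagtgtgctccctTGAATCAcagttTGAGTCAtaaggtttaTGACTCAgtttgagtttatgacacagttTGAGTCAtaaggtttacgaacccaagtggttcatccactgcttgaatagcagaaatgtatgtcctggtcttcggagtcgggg
MRPS10: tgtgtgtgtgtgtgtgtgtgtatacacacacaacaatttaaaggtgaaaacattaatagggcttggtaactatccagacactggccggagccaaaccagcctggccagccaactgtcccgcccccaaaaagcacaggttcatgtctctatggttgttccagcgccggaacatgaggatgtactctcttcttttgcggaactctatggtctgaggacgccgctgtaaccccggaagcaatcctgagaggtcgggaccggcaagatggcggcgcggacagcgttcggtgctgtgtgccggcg
PPIL1: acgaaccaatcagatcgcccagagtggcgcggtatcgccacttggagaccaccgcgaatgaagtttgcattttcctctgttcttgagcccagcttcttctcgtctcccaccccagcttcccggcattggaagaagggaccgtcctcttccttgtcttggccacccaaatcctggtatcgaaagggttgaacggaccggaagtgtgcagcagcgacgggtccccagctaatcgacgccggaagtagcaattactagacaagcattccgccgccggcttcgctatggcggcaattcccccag

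The peak at TRERF1 (chromosome 6, 42451832 to 42452070) covered bases -144 to 50 around the second of its 3 listed start sites, with its centre 0.022 kb from it. The promoter held 1 octamer match, ATTTGCAT on the opposite strand at bases -242 to -235, which lay outside the part under the peak. The promoter of LOC105375061 held 1 octamer match, at bases -166 to -159 and also outside the peak, and 4 AP-1 matches between bases -88 and -26, all 4 under the peak (chromosome 6, 42224647 to 42224884). The promoters of MRPS10, whose 300 bases lay wholly under a peak, and of PPIL1, with 281 bases under one, held neither match. The promoters of C6orf89 and RNF8, which a peak also overlapped but which are not shown, held neither as well. The octamer was present in 1.77% of all promoters and in 15.7% of the 496 that a peak overlapped anywhere in the genome, and the AP-1 element in 7.71% and 12.7%. The TEAD element GGAATG was present in 14.0% and 16.1%. These shares describe letters in a window of 300 bases and do not show which site was bound. None of the other 9 promoters, which belong to the 6 matched genes, held an octamer match.

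All 7 windows held 10 or more OCT-2 peaks, a number reached by 0.319% of all protein-coding gene windows (64 genes). The median over all windows was 1 peak and the highest count was 19, at TRERF1, so TRERF1 ranked first of all protein-coding genes. NAP1L1 had 16 peaks, PHLDA1 14, SAMD4A, PIM1 and FGD2 11 each, and ADAMTS12 10. Counted per length, the order changed, because SAMD4A, TRERF1 and ADAMTS12 are long genes with wide windows. NAP1L1 had 3.57 peaks per 100 kb of window, PHLDA1 3.45 and TRERF1 3.03, ranking 2, 3 and 20 of all genes by this density. PIM1 had 2.71 and FGD2 2.60 (ranks 35 and 42), SAMD4A 1.75 (rank 101) and ADAMTS12 1.30 (rank 317). The windows of PHLDA1 and NAP1L1 shared 13 of the 17 peaks that either held, and those of PIM1 and FGD2 shared 8 of 14, so these pairs are not independent cases. Each of the 71 peaks was a merge of 2 calls, as were 5733 of all 5736 peaks. Their median width was 265 bp, against 267 bp over all peaks.

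**Figure D1:**
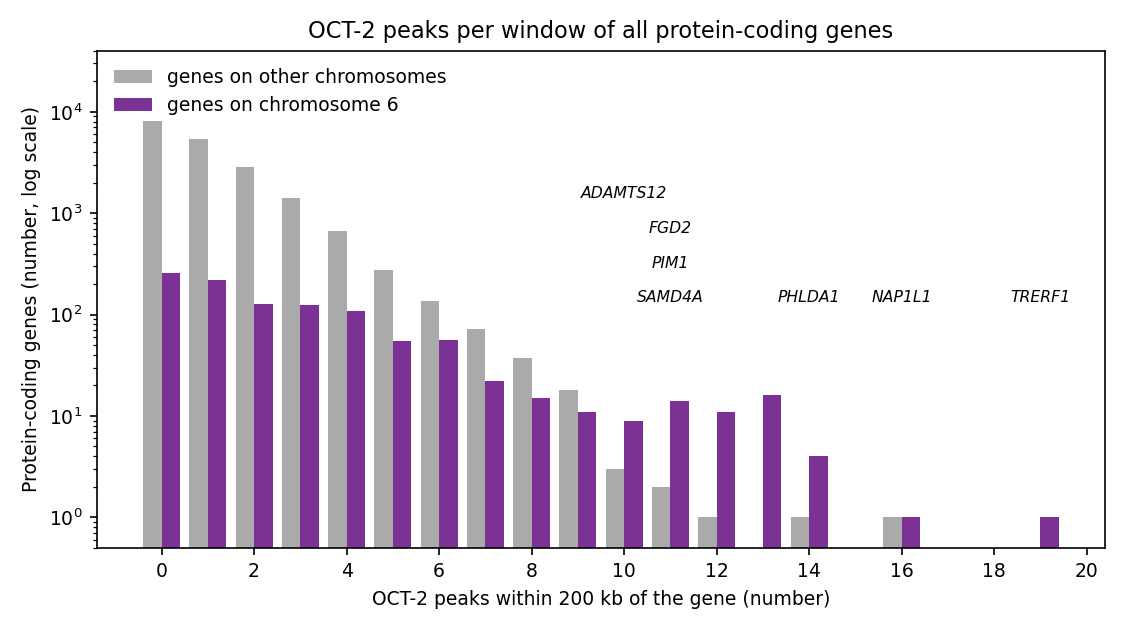
OCT-2 peaks within 200 kb of each protein-coding gene (x axis, number) against the number of genes (y axis, log scale), for genes on chromosome 6 and on all other chromosomes. Gene names mark the count of each of the 7 genes, from 10 at ADAMTS12 to 19 at TRERF1, and 56 of the 64 genes with 10 or more peaks are on chromosome 6.

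Chromosome 6 took a large part of the dense windows. It carried 56 of the 64 genes with 10 or more peaks (87.5%), among them TRERF1, PIM1 and FGD2, and 10.1% of all peaks. Its density of 3.40 peaks per Mb was the highest of all chromosomes, against 1.86 over the genome. These peaks were not spread evenly along the chromosome. The 10 Mb stretches from 0 to 60 Mb held 40 to 87 peaks each, and those beyond held 6 to 30. TRERF1, PIM1 and FGD2 lie in the first part. After overlapping windows were joined, the 64 genes stood for 14 loci, 7 of them on chromosome 6, and 29 of the genes lay in the single histone gene locus. Among genes of their own chromosome, NAP1L1, SAMD4A and TRERF1 ranked first and PHLDA1 second by number of peaks. ADAMTS12 shared the first place of its chromosome with another gene, while PIM1 and FGD2 ranked 34 of 1049. The 10 Mb stretches around the genes held many peaks as well, but these include the peaks for which the genes were chosen. The loci themselves held 14 (PIM1 and FGD2), 19 (TRERF1), 11 (SAMD4A), 10 (ADAMTS12) and 17 (PHLDA1 with NAP1L1) of them. The ranks are therefore not separate evidence. Of the 298 stretches of 10 Mb with any peak, those of PIM1 and FGD2 (87 peaks), TRERF1 (81), SAMD4A (70), ADAMTS12 (49) and PHLDA1 with NAP1L1 (42) ranked 1, 3, 4, 9 and 14, beside a median of 16.5. No input library was used here, and the part of the chromosome in these counts, its copy number in these cells included, was not tested.

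The superenhancers divided the 5 loci into 3 kinds. PHLDA1 with NAP1L1, and ADAMTS12, had most of their peaks in superenhancers of both cell populations. TRERF1 and SAMD4A had about as many outside as inside, with part of them in a region listed for 1 population alone. PIM1 and FGD2 had none inside. In all, 37 of the 71 peaks (26 in both lists, 3 in the Luc+OCT-2 list alone and 8 in the Luc+GFP list alone) lay in a superenhancer and 34 outside, while 16.9% of all OCT-2 peaks lay in one. Over all 5736 OCT-2 peaks, 625 lay in both lists, 279 in the Luc+OCT-2 list alone and 63 in the Luc+GFP list alone. Of the 7 windows, 4 met a Luc+OCT-2 superenhancer and 5 a Luc+GFP one, where 15.8% and 11.8% of all protein-coding gene windows did so. Because the genes were picked for their peaks, with the superenhancers in view, these counts are no independent result.

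**Figure D2:**
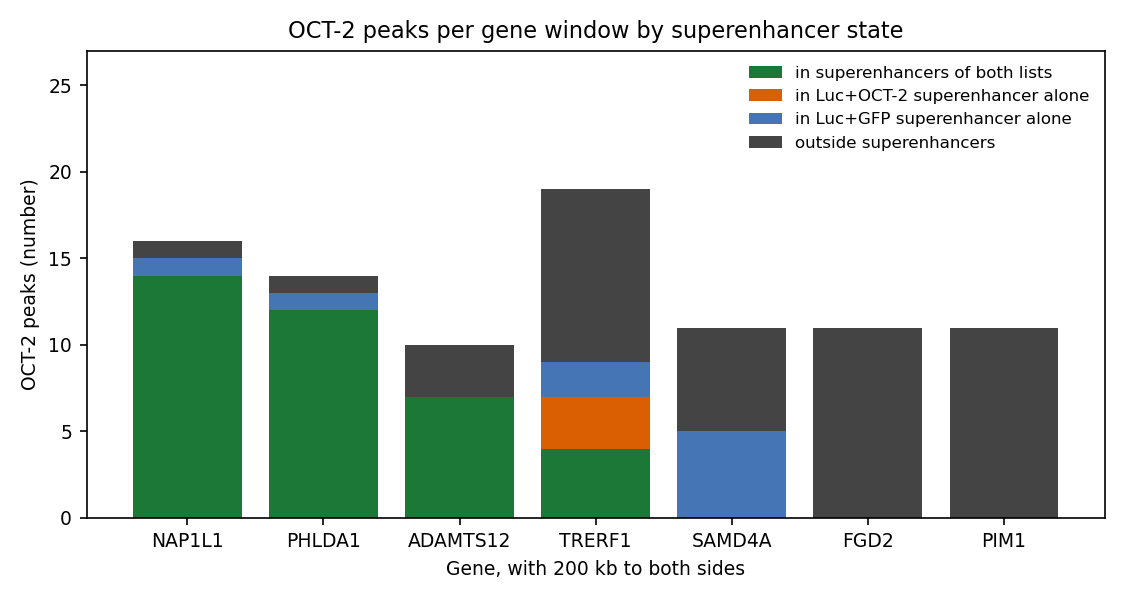
Number of OCT-2 peaks (y axis) in the window of each gene with 200 kb to both sides (x axis), divided by whether the peak lay in a superenhancer of both lists, of 1 list alone, or outside. NAP1L1 and PHLDA1 each have 1 peak outside, TRERF1 has peaks of all 4 kinds, and all 11 peaks of PIM1 and of FGD2 are outside.

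At PHLDA1 and NAP1L1 the peaks lay in 3 superenhancers that both populations had. PHLDA1 (chromosome 12, 76025447 to 76031776, minus strand) and NAP1L1 (76036585 to 76084685, minus strand) are 4.81 kb apart. The middle superenhancer reached from 75924004 to 76039126 in the OCT-2 cells (115 kb) and held 7 peaks, the whole of PHLDA1 and the 3′ end of NAP1L1. Its borders in the control cells differed by 0.71 and 0.54 kb. The superenhancer upstream of both genes (76157558 to 76349237, 192 kb) held 5 peaks and had borders within 0.15 kb of the control region. The superenhancer downstream was narrower in the OCT-2 cells (75704078 to 75867543, 163 kb) than in the control cells (273 kb), and 1 peak, at 75892894 to 75893274, lay in the part listed for the control cells alone. Only the peak at 76103350 to 76103701, upstream of NAP1L1, was outside both lists.

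PHLDA1 itself carried the tightest group at this locus. A cluster was defined as 3 or more peaks with at most 20 kb between the centres of neighbours. Such clusters were in 2.21% of all protein-coding gene windows and in 7 of 7 here, which the choice of the genes entails. The 7 are not separate cases. The only cluster in the NAP1L1 window was that of PHLDA1, and the windows of PIM1 and FGD2 shared a single one. The PHLDA1 cluster had 4 peaks in 7.44 kb (76020925 to 76028366), separated by 4.59, 1.44 and 1.17 kb. Of these, 3 lay in the 6.33 kb gene and the fourth downstream of it, and the centre nearest to the start site was 3.54 kb away from it. NAP1L1 had 0 peaks in its gene body, and the nearest centre to its start site was 18.8 kb upstream. Of its 16 peaks, 10 lay downstream, on the side of PHLDA1, and 6 upstream, 5 of these in the superenhancer there.

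ADAMTS12 (chromosome 5, 33523535 to 33891990, minus strand) had the cluster of widest span in the genome. All 7 peaks in superenhancers lay within the gene, in the part nearer its start. The region spanned 33765459 to 33860126 in the OCT-2 cells (94.7 kb) and 33726265 to 33860182 in the control cells (134 kb), with the same end to within 0.06 kb and a start 39.2 kb apart. It held 7.39 peaks per 100 kb in the OCT-2 cells. Of the 7 peaks, 6 formed a cluster of 47.4 kb (33808471 to 33855822) with gaps of 8.90, 7.65, 9.28, 9.42 and 11.8 kb, and the seventh lay 36.0 kb from them. This cluster and 1 in BTBD9, a gene of chromosome 6, were the only clusters of 6 peaks among the 98 of the genome. The nearest peak to the ADAMTS12 start site was 36.3 kb into the gene, and the other 3 peaks of the window were outside superenhancers, 1 downstream and 2 upstream. The gap of 371 kb from the downstream peak to the first peak within the gene was the longest at any of the 5 loci.

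**Figure D3:**
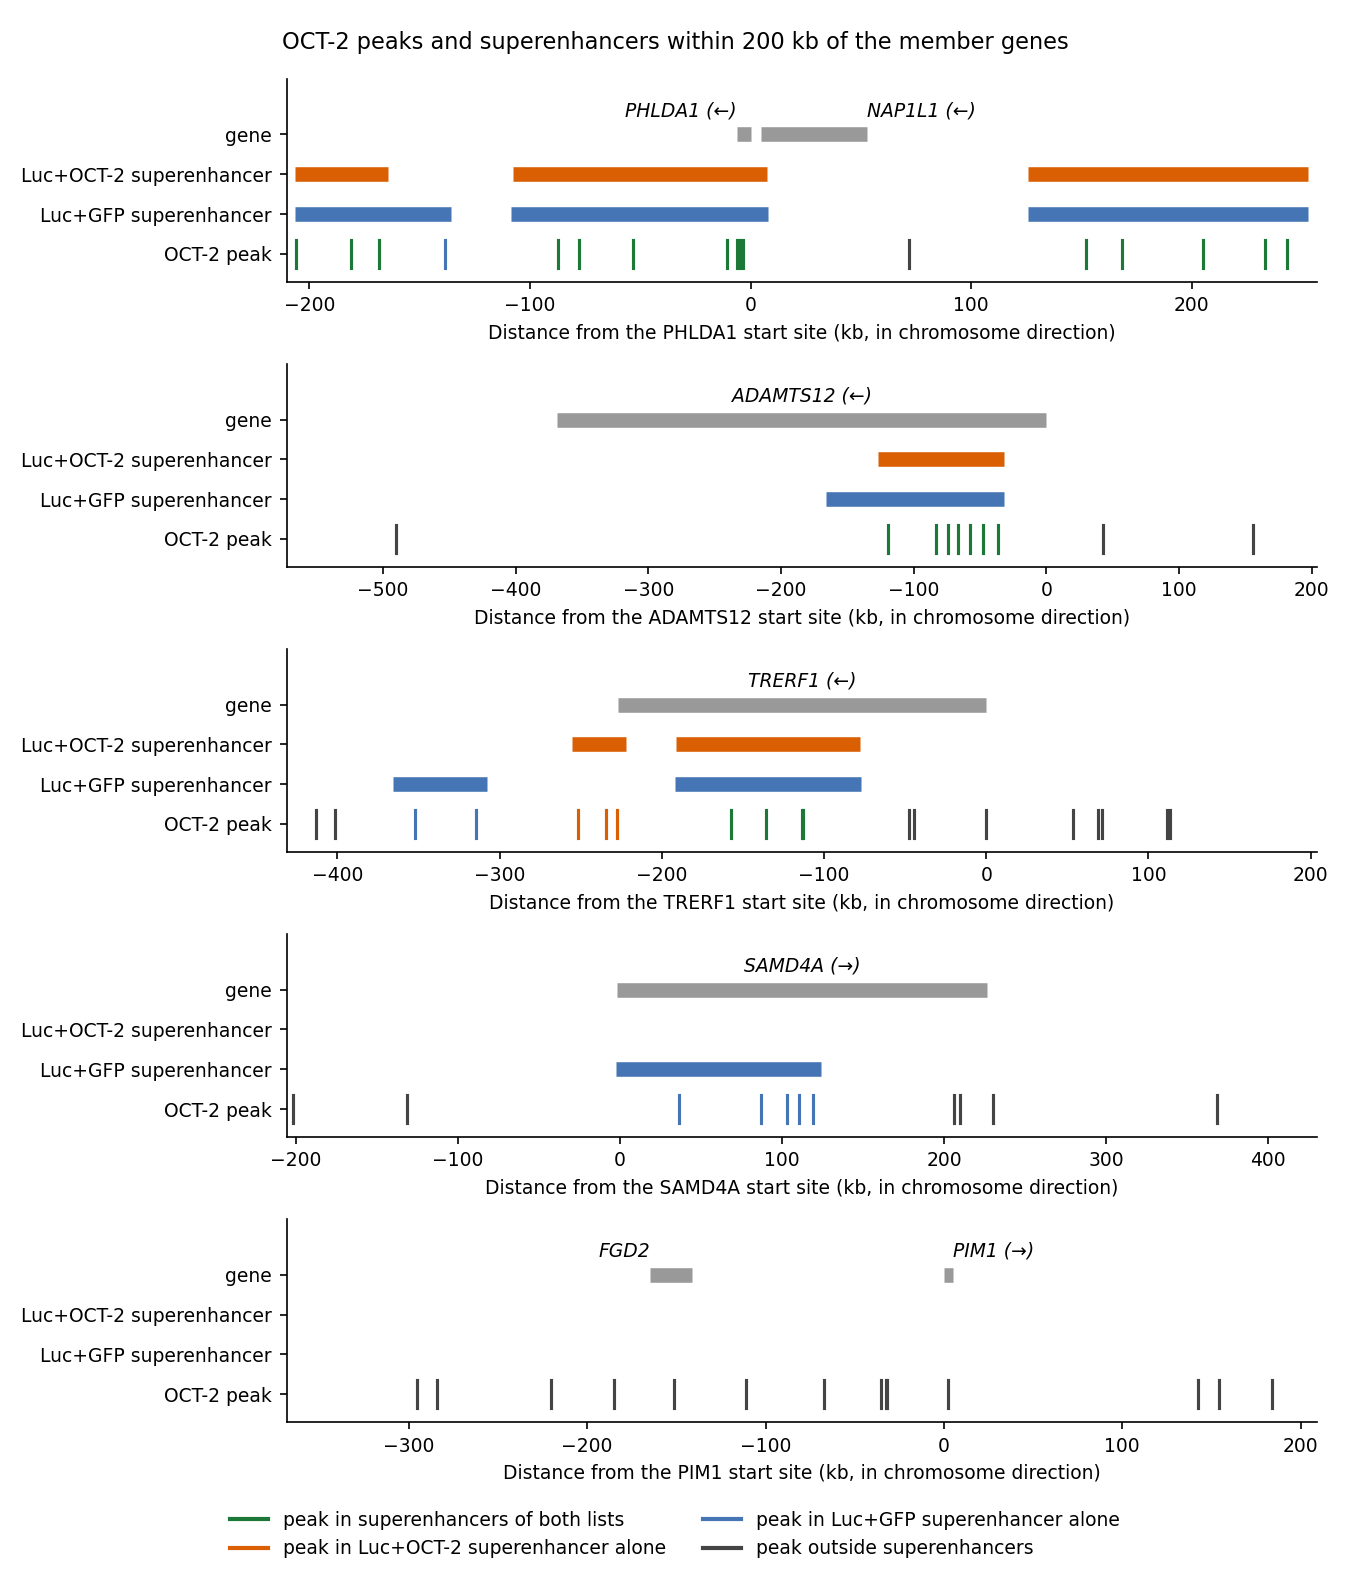
Gene bodies (arrows give the strand where the promoter table lists it), superenhancers of the Luc+OCT-2 and Luc+GFP lists and OCT-2 peaks at the 5 loci, by distance from a start site (x axis, kb, in chromosome direction). Superenhancers are drawn up to the edge of the windows. Peaks at PHLDA1 and ADAMTS12 sit over superenhancers of both lists, the 5 grouped peaks in SAMD4A over a region of the Luc+GFP list alone, and the PIM1 and FGD2 panel has no superenhancer.

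TRERF1 (chromosome 6, 42224931 to 42452224, minus strand) had peaks of every kind. In the gene body, 4 peaks lay in a superenhancer of both lists (42260904 to 42374617, 114 kb), with borders within 0.38 kb of each other, and 3 lay outside, among them the promoter peak. Directly past the 3′ end of the gene, a superenhancer of 32.9 kb (42197058 to 42229912) was listed for the OCT-2 cells alone and held a cluster of 3 peaks (42200219 to 42224884, 24.7 kb). It overlapped MRPS10, the gene of a mitochondrial ribosomal protein, and reached into the end of TRERF1. The third peak of this cluster, on the LOC105375061 promoter, ended 0.047 kb from TRERF1. Farther downstream, a superenhancer of 57.7 kb (42086668 to 42144356), at C6orf132 and TAF8, a gene of the basal transcription machinery, was listed for the control cells alone and held 2 peaks. The region of the OCT-2 cells alone was one of their narrowest, ranking 482 of 518 by width. When only the 337 widest Luc+OCT-2 regions were kept, it was not among them, and the peaks of the window in that list went from 7 to 4.

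Upstream of TRERF1 a second cluster lay outside superenhancers. It had 3 peaks in 18.1 kb (42505433 to 42523544), overlapped no protein-coding gene, was 53.2 kb from TRERF1 and 40.5 kb from UBR2, a ubiquitin ligase gene, and lay 131 kb from the nearest superenhancer. The shortest gap of any locus, 0.593 kb, separated a pair of peaks in the TRERF1 gene body. Windows of neighbouring genes overlapped that of TRERF1, so part of their peaks are the same ones. CCND3, the gene of cyclin D3, had 13 peaks in its window, 8 of them in Luc+OCT-2 superenhancers. UBR2 had 14, of which 12 were outside both lists.

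SAMD4A (chromosome 14, 54565316 to 54793315, plus strand) had its densest peaks in a region that the OCT-2 cells were not listed to have as a superenhancer. The Luc+GFP list held a region of 127 kb (54564663 to 54691257) over the first part of the gene, and the nearest region of the Luc+OCT-2 list was 2983 kb from the gene. The region held 5 OCT-2 peaks, which like all peaks here were called in the OCT-2 cells. Of these, 4 formed a cluster of 32.5 kb (54654072 to 54686588) with gaps of 15.7, 7.61 and 8.92 kb. It was the only 1 of the 98 clusters of the genome that lay in a superenhancer of the Luc+GFP list alone. Another 2 peaks lay near the 3′ end within the gene, 3.21 kb apart, with a further one 20.5 kb on, which missed the cluster limit of 20 kb narrowly. No peak overlapped a SAMD4A promoter, and the nearest centre to any of its 3 start sites was 18.6 kb away.

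PIM1 (chromosome 6, 37170152 to 37175428, plus strand) and FGD2 (37005655 to 37029069) are 141 kb apart and had 14 peaks between them, all outside superenhancers. The nearest superenhancer was 1057 kb from PIM1 by either list, and 1204 kb (Luc+OCT-2) or 1203 kb (Luc+GFP) from FGD2. The single cluster had 3 peaks in only 3.80 kb (37134628 to 37138426), with gaps of 2.86 and 0.636 kb, and lay 31.7 kb upstream of PIM1. The same cluster began 106 kb from FGD2, so it lay nearer to PIM1. PIM1 also had 1 peak in its gene body, with its centre 2.17 kb from the start site, and FGD2 had 1 in its body. Most other peaks stood farther apart, though gaps of 10.8 and 11.9 kb also occurred outside the cluster. Over the whole locus, cluster included, the median gap was 33.7 kb and the longest 140 kb. Of the 14 peaks, 3 lay on promoters of other genes, namely PPIL1, which encodes a spliceosomal peptidyl-prolyl isomerase, C6orf89, and RNF8, a ubiquitin ligase of the DNA damage response. Beside other dense windows, the absence of superenhancers was not confined to this locus. Of all 64 windows with 10 or more peaks, 11 (17.2%) met no superenhancer, with 10 to 12 peaks each, and all 11 were on chromosome 6. Besides PIM1 and FGD2 they include TBC1D22B, TMEM217, MTCH1, PI16 and MDGA1 nearby, whose overlapping windows join with theirs into the same locus. The 11 windows are therefore not separate cases. KCNQ5, PHACTR1 and H4C8 lie elsewhere on that chromosome.

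Spacing was compared between the 5 loci. The median distance between neighbouring peaks was 11.8 kb at ADAMTS12, 21.8 kb at TRERF1, 24.5 kb at PHLDA1 and NAP1L1, 33.7 kb at PIM1 and FGD2 and 35.6 kb at SAMD4A. Over all 66 gaps the median was 26.6 kb and 42.4% were up to 20 kb, whereas over all 5713 gaps of the genome the median was 186 kb and 13.0% were that short. At the 5 loci, pairs of neighbours that both lay in superenhancers had a median gap of 16.03 kb (n = 32) and pairs that both lay outside 32.7 kb (n = 26). The quartiles overlapped, with 8.92 to 31.4 kb inside and 11.1 to 44.2 kb outside. Over the genome, with pairs up to 1000 kb apart, these medians were 24.1 kb (n = 594) and 166 kb (n = 3741). The outside pairs of these loci were therefore nearer to each other than most outside pairs, which the choice of the genes entails. Part of the difference between inside and outside pairs is fixed by the definition. Peaks in the same superenhancer cannot lie farther apart than its width, with a median of 84.9 kb (Luc+OCT-2) or 105 kb (Luc+GFP). Neighbours in different superenhancers also counted as inside.

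**Figure D4:**
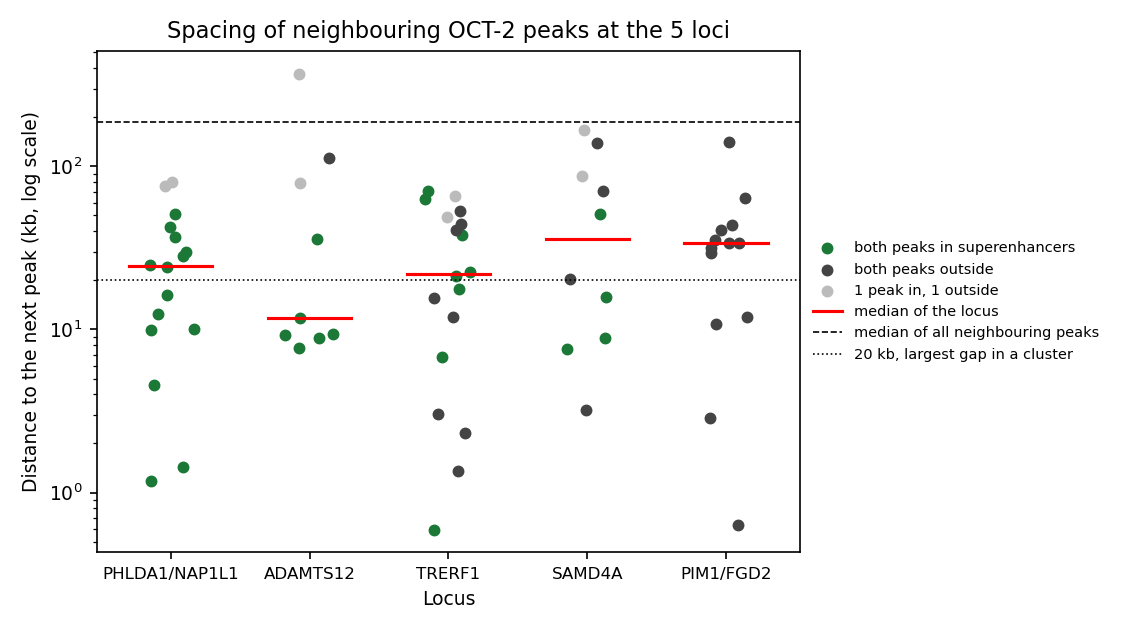
Distance between neighbouring OCT-2 peaks (y axis, kb, log scale) at the 5 loci (x axis), 1 point for each pair, coloured by whether both peaks, neither or 1 of them lay in a superenhancer of either list. Red bars are the medians, from 11.8 kb at ADAMTS12 to 35.6 kb at SAMD4A, and all lie below the dashed line, the median of 186 kb over the genome.

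The contrast of clusters inside with clusters outside superenhancers was then extended from these genes to all peaks. The genome had 98 clusters of 3 or more peaks, holding 323 peaks, and 50% of them, 49, lay in a superenhancer of either list. Of the 6 clusters at the 5 loci, 4 were inside and 2 outside. The inside ones, at PHLDA1, ADAMTS12, SAMD4A and the end of TRERF1, had 4, 6, 4 and 3 peaks and spanned 7.44 to 47.4 kb. The outside ones, upstream of PIM1 and of TRERF1, had 3 peaks each and spanned 3.80 and 18.1 kb. All 4 inside clusters overlapped a gene body and both outside ones lay between genes.

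Over the genome the clusters of both kinds were of nearly the same form. The rule of 3 or more peaks with gaps up to 20 kb fixes part of this likeness. Inside ones had a median span of 17.4 kb (quartiles 10.99 to 26.6) and a median gap of 7.68 kb, and outside ones a span of 18.5 kb (12.4 to 24.1) and a gap of 8.74 kb. The median number of peaks was 3 for both. Large clusters were seen inside alone: 3 of 49 inside had 5 or more peaks and 0 of 49 outside, and 8 outside had 4. These 3 were ADAMTS12, BTBD9 and the histone genes around H2BC3. The PHLDA1 and SAMD4A clusters were among 13 inside that tied at 4 peaks. Of these 13, the clusters of shortest span were PHLDA1 (7.44 kb) and 1 nearest to ARF6 (12.9 kb). The 8 outside with 4 peaks included CLMN, ATXN1, ANKRD36 and MATN2. ANKRD36 has near-identical copies, so reads there may be shared among them. Outside clusters overlapped a protein-coding gene in 63.3% and inside ones in 46.9%, whereas the 2 outside ones at these loci overlapped none. Outside clusters had a median distance of 1094 kb to the nearest superenhancer, and 4 of 49 lay within 100 kb of one. This distance was not measured for other outside peaks, so it is not known whether it is particular to clusters. On chromosome 6, 10 of 21 clusters were outside (47.6%), against 50.6% of the 77 on other chromosomes.

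**Figure D5:**
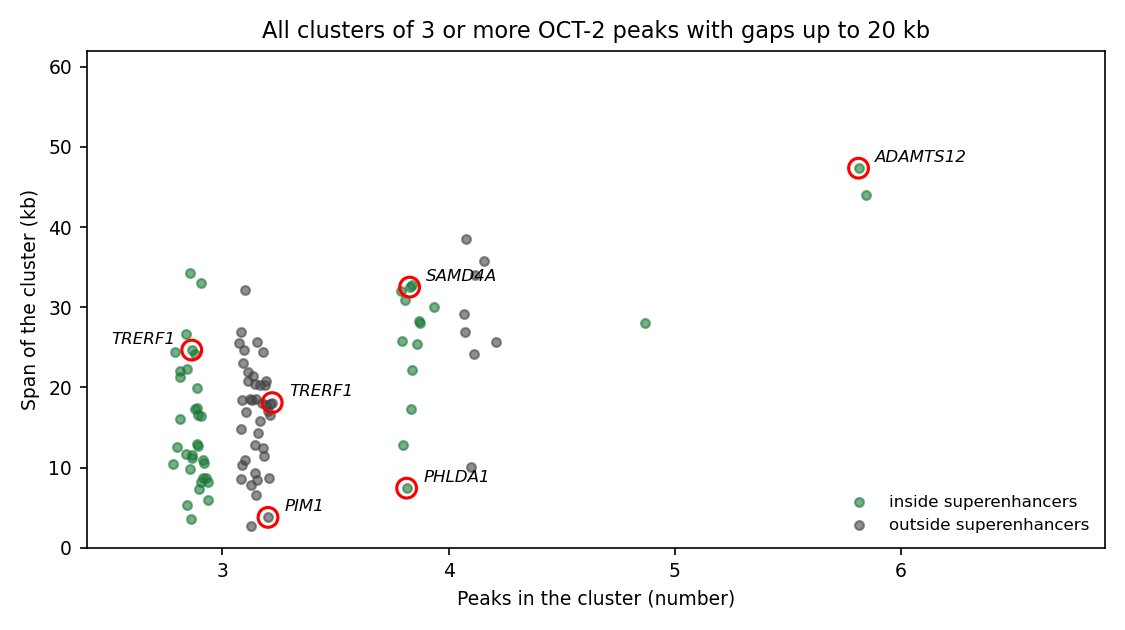
Span (y axis, kb) against number of peaks (x axis) of the 98 clusters of the genome, inside (green) and outside (grey) superenhancers of either list, with points shifted sideways to separate them. Red circles mark the 6 clusters at the 5 loci, and no outside cluster has more than 4 peaks.

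Genes with the most similar windows were looked for among 20000 protein-coding genes outside the 5 loci, by the distance over 3 counts (all peaks, those in Luc+OCT-2 and those in Luc+GFP superenhancers). PHLDA1 and NAP1L1 were nearest to NRP1, the gene of the co-receptor neuropilin-1, with 12 peaks, 11 and 9 of them in the respective lists. ADAMTS12 was nearest to CUBN, with 9 peaks of which 7 lay in both, and SAMD4A to ROR1, a receptor-like kinase gene with 9 peaks, 0 in the Luc+OCT-2 and 4 in the Luc+GFP list. TRERF1 was nearest to the histone gene H2BC5, with 14 peaks and 5 in each list. PIM1 and FGD2 were nearest to H4C8, with 10 peaks and 0 in either list; 3 other genes were as near. The distances were 1 for ADAMTS12, PIM1 and FGD2, 2.24 for SAMD4A, 4.58 for PHLDA1, 5.48 for TRERF1 and 7.81 for NAP1L1, so the last 3 had no close match.

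Relatives of the 7 genes were also counted. Of 34 paralogues, 22 had 1 or more peaks in their windows, where 58.1% of all protein-coding gene windows had. Their median was 1 peak, as over all genes. A cluster was present in 0 of 34 (2.21% of all windows), a Luc+OCT-2 superenhancer in 4 (15.8%) and a Luc+GFP one in 0 (11.8%). The highest was MIDEAS, a relative of TRERF1, with 6 peaks, 3 of them in Luc+OCT-2 superenhancers. FGD6 had 4 peaks, 3 in its gene body, NAP1L5 and ADAMTS14 had 3 each, and PIM3, FGD1 and FGD4 had 0. ADAMTS6 and ADAMTS16 met Luc+OCT-2 superenhancers, with 2 and 1 of their peaks in them, and 11 of the 18 ADAMTS genes had a peak. PHLDA3 met a Luc+OCT-2 superenhancer without a peak in it.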

How the data were processed

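Each ChIP used 5 µg of antibody and 15 cycles of PCR, per the labels' protocols. HOMER, bedtools, Bowtie and Bowtie2 (2.2.2.6) are listed in the submitters' processing notes, without roles, and the thresholds behind the calls are not known here. Each deposited list gives start, end, centre and number of merged calls of each region, with no count, score or signal. Used were 5736 of 5741 OCT-2 peaks (5 on other contigs were left out), 518 Luc+OCT-2 and 337 Luc+GFP superenhancers, all hg38 by the authors' file names; 7 lists in hg19 or of unnamed build were not analysed here, and no coordinates were converted. The 2 replicates of a group stand behind each list, and nothing says whether they came from separate cultures.

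Gene positions and promoters came from RefSeq (GRCh38.p14). Peaks were counted with an overlap of 1 bp or more, and coordinates are 1-based. No test was run: there are no values per sample. The members and lists were chosen with earlier results of these data known. Named are the 7 genes, up to 5 genes per window at its clusters or superenhancers, the most similar gene for each, genes at the 5 largest clusters inside and outside superenhancers (by number of peaks, ties by the shortest span, which decided among those with 4 peaks; 1 outside is not reported here), and paralogues; UBR2, CCND3, BTBD9, LOC105375061, PPIL1, C6orf89, RNF8 and the dense windows of chromosome 6 were named after their values were seen. Octamer, AP-1 and TEAD letters were searched in promoters, since no genome sequence was used here. Interval and motif functions were tested on simulated data. Analyses used Python 3.11.15, numpy 2.4.6, pandas 2.3.3 and matplotlib 3.10.9.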

Additional observations from a re-analysis of the deposited data

How the results depend on the processing

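The counts depend on how wide the surroundings are drawn and how clusters are defined, less on how overlap is called. No paired analysis was possible because each deposited list merges the replicates, and for the same reason no replicate could be left out. With flanks of 100 or 500 kb the 71 peaks became 48 or 105 and the median gap 20.5 or 33.5 kb. With gene bodies alone 26 peaks were left. A stricter list, of merges of more than 2 calls, left 0 of the 71. Only 3 of all 5736 peaks were such merges, so this setting says nothing about these loci. Requiring the peak centre in the window, a setting chosen after the data were seen, gave 70. Of the 71 peaks, 29 lay in Luc+OCT-2 and 34 in Luc+GFP superenhancers, also with the whole peak inside or within 10 kb; with the 337 widest Luc+OCT-2 regions the first was 26. With gaps up to 10 kb, 3 clusters of these loci were inside and 1 outside superenhancers (30 and 17 in the genome). With gaps up to 50 kb, 8 were inside and 5 outside (112 and 158 in the genome). With 5 or more peaks, 1 was inside and 0 outside (3 and 0). The share of clusters inside thus changed with the definition, since looser gaps add more clusters outside; the cause was not tested. With the widest regions, a setting added later for these loci, 3 were inside and 3 outside (48 and 50 in the genome). Requiring every peak of a cluster inside changed nothing in the genome counts, and searching ATGCNAAT left 1 promoter of these genes with a match. Of 70 values for single genes, 47 stayed within 1.5 times. The 23 that moved were peak counts of the windows, except the Luc+OCT-2 superenhancer count at TRERF1 with the widest regions (7 to 4). The 47 include superenhancer counts of 0 that stayed 0, at PIM1, FGD2 and SAMD4A.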
